A study of Homo sapiens with 21 samples.

Results

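The histone genes of OCI-AML5, a human acute myeloid leukaemia cell line, were followed through exposure to UM171, a small molecule used to expand blood stem cells in culture. Members were all genes whose identifier, read without its version, mapped to a protein-coding symbol starting with H2A, H2B, H3 or H4, or made of H1- and a number. Pseudogenes were left out. In all, 93 of 58174 gene identifiers qualified. Of these, 71 were clustered histone genes, known by a former HIST name, and 22 were replacement histone genes, which have none. The clustered genes lay in 4 places, with 55 at 6p22, 12 at 1q21, 3 at 1q42 and 1 at 12p12. By family, 6 encoded H1, 17 H2A, 18 H2B, 15 H3 and 15 H4. The replacement genes comprised 4 of H1, 10 of H2A, 3 of H2B and 5 of H3.

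The series held 21 stranded poly(A) RNA-seq libraries in 7 groups of 3. In the time course, OCI-AML5 cells received UM171 at 500 nM for 6, 24, 48 or 72 h, or the solvent DMSO at 0 nM, labelled 72 h. The remaining libraries came from OCI-AML5 cells that expressed a guide RNA against EPCR (sgEPCR), the surface receptor encoded by PROCR, and received DMSO at 0 nM or UM171 at 500 nM for 24 h. The labels call these cells clones, do not say which library is which clone, and describe them both as a knockdown and as EPCR null. The labels of the time course name no guide. The text of the study gives another UM171 dose and another culture medium than the labels do. The DMSO and the 24 h UM171 libraries of the time course also served as control cells for the sgEPCR libraries, so the comparisons below share samples, and the labelled times of the DMSO groups differ (72 h against 24 h). The labels do not say that the libraries of a group came from separate cultures, so all p-values measure only the spread between these libraries. In bulk RNA, fewer cells that express a gene and less RNA per cell cannot be told apart.

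Histones package DNA. H2A, H2B, H3 and H4 form the core around which DNA winds, and H1 binds the linker between cores. Clustered histone genes are transcribed mainly in S phase, when new DNA needs new nucleosomes, and most of their mRNAs end in a stem-loop rather than a poly(A) tail. Replacement histones such as H2A.Z and H3.3 are made through the cell cycle from ordinary polyadenylated mRNAs. Selection on poly(A) therefore recovers such mRNAs, but the clustered ones only as far as they carry a tail or are carried over. Any replacement mRNA without a tail, of H2AX for example, would be missed in the same way. The values below are read in that sense. Some clustered genes, H2BC21 and H2BC12 among them, are known to give polyadenylated transcripts as well.

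Totals ran from 24.3 to 51.5 M expected counts per library (median 33.9 M). Of these, the clustered genes together held 593 to 3239 counts and the replacement genes 23585 to 86682. The smaller counts make single clustered genes far less precise. Replicate 1 of sgEPCR DMSO and replicate 2 of sgEPCR UM171 stood apart, with 35.9% and 32.2% of their counts on mitochondrially encoded genes where the rest had 7.73 to 13.5%, and the fits of the sgEPCR libraries were repeated without both. PROCR, the targeted gene, had 3.37 to 4.30 TPM (transcripts per 1 M transcripts, corrected for transcript length) in DMSO and 48.5 in all 3 libraries at 24 h of UM171, against 2.30 to 4.53 in sgEPCR DMSO and 4.23 to 8.94 in sgEPCR UM171. A guide that disrupts the protein need not lower its mRNA. All 9 myeloid markers were above the filter on low counts, while the erythroid list summed to at most 0.09 TPM and the stromal list to at most 2.23 TPM. Among lymphoid markers the T cell list summed to 7.07 to 7.94 TPM in DMSO and 25.1 to 37.0 TPM at 24 h through TRAC and CD3D, with CD3E at most at 0.11 TPM. The B cell list summed to 9.48 to 10.4 TPM and 27.5 to 30.7 TPM through CD79A, with MS4A1 at 0. Of its 4 genes, 2 were tested at 24 h and both were higher, with log2 changes of 1.51 and 6.66. Their part in the histone results was not tested.

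The histone mRNA in these libraries was almost wholly replacement histone mRNA. Of the 71 clustered genes, 7 had 0 counts in every library, 25 reached a mean of 1 TPM over the 21 libraries, 3 reached 10 TPM and none reached 100 TPM. Of the 22 replacement genes, 7 had 0 counts in every library, 9 reached 1 TPM, 8 reached 10 TPM and 5 reached 100 TPM. Those 5 were H3-3A and H3-3B, which both encode H3.3, H2AZ1 and H2AZ2, which encode the 2 forms of H2A.Z, and the linker histone gene H1-10. The order of mean level was H3-3A (493 TPM), H3-3B (489 TPM), H2AZ1 (470 TPM), H2AZ2 (193 TPM), H1-10 (101 TPM), H2AX (99.9 TPM) and H2AJ (64.9 TPM). The ranges over libraries of the first 3 overlapped, as did those of H1-10 and H2AX. By family, clustered H2B summed to a mean of 58.1 TPM, H2A to 53.2, H4 to 17.1, H1 to 13.6 and H3 to 4.88, whereas replacement H3 summed to 982 TPM, H2A to 828 and H1 to 114. A filter on low counts left 44 members in the time course (35 clustered, 9 replacement) and 43 in the sgEPCR comparison (34 and 9) and the members under it were not tested.

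Against DMSO labelled 72 h, the sums of both classes went opposite ways at 24 h of UM171. The summed level of the clustered genes was 183 to 207 TPM in DMSO, 175 to 202 TPM at 6 h, 107 to 137 TPM at 24 h, 98.7 to 148 TPM at 48 h and 136 to 152 TPM at 72 h. The libraries at 24, 48 and 72 h were all below those of DMSO, with group means of 0.606, 0.645 and 0.739 of the DMSO mean, while 6 h (0.975) overlapped it. The replacement genes summed to 1751 to 1828 TPM in DMSO, 1550 to 1780 TPM at 6 h, 2409 to 2499 TPM at 24 h, 1499 to 2206 TPM at 48 h and 1792 to 2008 TPM at 72 h, so that 24 h stood above all other time course groups. UM171 48 h replicate 3 was the low library of its group for both classes, and at 13.5% had the highest mitochondrial share of the time course. As a share of both classes together, the clustered genes made up 9.47 to 10.2% in DMSO, 10.1 to 10.3% at 6 h, 4.27 to 5.30% at 24 h, 5.83 to 6.43% at 48 h and 6.42 to 7.73% at 72 h. No test was made on these sums. The DMSO group of the time course is labelled 72 h. In all comparisons of 6, 24 or 48 h with it, UM171 and labelled time cannot be told apart.

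**Figure D1:**
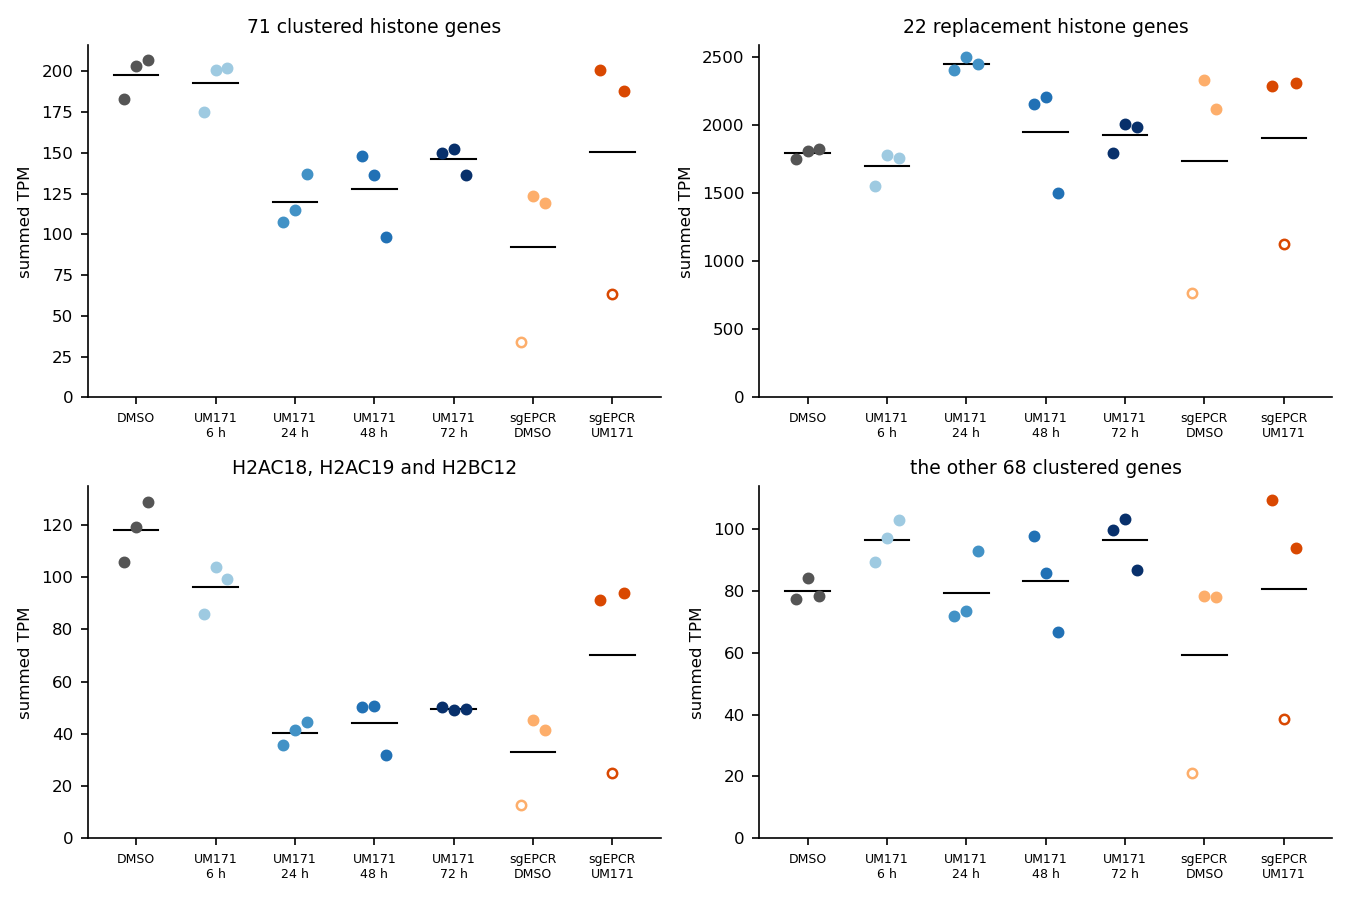
Summed TPM (vertical axes, from 0) of the clustered genes, of the replacement genes, of H2AC18, H2AC19 and H2BC12, and of the other 68 clustered genes, by group; each point is a library, open points are the 2 libraries with over 20% mitochondrial counts and black bars are group means. The clustered sum falls from 183 to 207 TPM in DMSO to 107 to 137 TPM at 24 h while the replacement sum goes from 1751 to 1828 TPM to 2409 to 2499 TPM, and the upper and lower clustered panels differ.

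Most of the fall lay in 3 genes. H2AC18 and H2BC12 had the highest mean TPM of the clustered H2A and H2B genes, and H2AC19 is a near-identical copy of H2AC18. These 3 genes, grouped after their values were seen, summed to 117.9 ± 11.6 TPM (SD, n = 3) in DMSO. At 24 h they summed to 40.5 ± 4.49 TPM (SD, n = 3), a ratio of 0.343. The other 68 clustered genes summed to 79.9 ± 3.67 TPM in DMSO and 79.4 ± 11.7 TPM at 24 h (SD, n = 3 each), a ratio of 0.994. On the CPM scale, counts over the TMM-scaled library size, these ratios were 0.292 and 0.771, so the lack of change in the remaining genes held in TPM only. By place, the 12 genes at 1q21 had 0.289 of their DMSO sum at 24 h and 0.518 at 72 h, the 55 genes at 6p22 had 0.791 and 0.792, and the 3 genes at 1q42 had 0.987 and 2.01. By family, clustered H2A had 0.397 and 0.619 of its DMSO sum at 24 and 72 h, H2B 0.622 and 0.644, H1 0.863 and 0.961, H3 1.26 and 1.00, and H4 1.32 and 1.75 (all in TPM). At 48 h the same H4 sum was 1.60 of DMSO.

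The limits for a call were over 2-fold and an adjusted p under 0.0001 (edgeR quasi-likelihood test with Benjamini-Hochberg adjustment over all 16575 tested genes). Of the 44 tested members, none passed them against DMSO after 6 h, 2 did after 24 h, 3 after 48 h and 3 after 72 h. Of all tested genes 7.03%, 13.7%, 16.4% and 20.8% passed at these times. For 6 h, 13 members had an unadjusted p under 0.05, and DESeq2 and limma also placed 0 past the limits. At an adjusted p under 0.05 with no limit on fold, 2 clustered members were higher and 2 lower at 6 h, while 24 h had 5 and 11, 48 h had 6 and 10, and 72 h had 6 and 8. For the replacement members these counts were 3 and 5, 6 and 2, 3 and 1, and 4 and 1. Among all genes the higher and lower shares at that limit were 31.8% and 30.3% for 6 h, 34.9% and 34.8% for 24 h, 37.1% and 35.0% for 48 h, and 38.8% and 36.8% for 72 h. The clustered shares, 14.3% higher and 31.4% lower at 24 h, lay below that background. The median log2 fold change of the 35 clustered members was 0.15, -0.13, 0.07 and 0.07 in the same order, that of the 9 replacement members -0.24, 0.29, 0.08 and -0.07, and that of all tested genes lay between -0.01 and 0.02.

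H2AC18 and H2AC19 encode the same H2A protein and lie as an inverted repeat at 1q21, at chr1:149842218-149842750 on the minus strand and chr1:149851061-149851594 on the plus strand (GRCh38, GENCODE v44, the annotation of all gene coordinates here). Their transcripts share 99.8 to 100% of their 50-base words, so reads cannot be assigned to either with confidence. RSEM's own SD of the count was a median of 21.03% of the count for H2AC18 and 65.2% for H2AC19. The upstream sequences show the same: 149 of the 150 printed bases before the start of H2AC18 recur as 1 run before that of H2AC19. Both are shown 5′ to 3′ along the gene's own strand (RefSeq, GRCh38.p14, chr1:149842751-149842900 minus strand and chr1:149850911-149851060 plus strand) because they carry the largest fall, with capitals for CCAAT and TATAAA on either strand.
H2AC18: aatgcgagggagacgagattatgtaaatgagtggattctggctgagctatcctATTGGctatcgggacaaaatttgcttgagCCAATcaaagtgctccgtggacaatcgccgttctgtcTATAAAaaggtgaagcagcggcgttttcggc
H2AC19: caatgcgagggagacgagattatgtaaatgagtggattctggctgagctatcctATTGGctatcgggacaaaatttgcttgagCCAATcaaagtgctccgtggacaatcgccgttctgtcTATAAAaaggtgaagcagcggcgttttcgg
Each holds CCAAT on both strands, 1 TATAAA and no ATTTGCAT octamer.

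Summed, this pair had 51.4, 62.8 and 66.7 TPM in DMSO, 49.5, 63.5 and 61.8 TPM at 6 h, 6.54, 9.06 and 9.42 TPM at 24 h, 15.6, 15.1 and 9.16 TPM at 48 h, and 19.6, 16.6 and 19.7 TPM at 72 h. DMSO and 6 h overlapped, and every later library lay below both. At 24 h H2AC18+H2AC19 fell by 2.92 ± 0.15 on the log2 scale (SE, adjusted p = 1.4e-11), the sum being an analysis added after the data were seen. The fall was 2.15 at 48 h and 1.77 at 72 h, and from 24 to 72 h the pair rose by 1.15 (adjusted p = 6.2e-06). H2AC18 alone fell by 2.55 ± 0.30 at 24 h (adjusted p = 7.4e-07), by 2.05 ± 0.29 at 48 h (adjusted p = 5.8e-06) and by 1.41 ± 0.27 at 72 h (adjusted p = 1.5e-04, outside the limit). H2AC19 was at 0 in all libraries at 24 and 72 h and had 3.76 to 28.9 TPM in DMSO, a split that the shared sequence leaves uncertain.

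H2BC21 encodes an H2B at 1q21 (chr1:149884459-149886682, minus strand) and shares a promoter with H2AC20, an H2A gene read the other way (chr1:149886918-149887411). The 235 bases between both starts are printed along the strand of H2BC21 (RefSeq, GRCh38.p14, chr1:149886683-149886917, minus strand), since the log2 changes of the 2 genes at 24 h had opposite signs. Capitals mark the octamer ATTTGCAT, which the factor POU2F1 binds in H2B promoters, CCAAT, and TATAAA, each on either strand.
H2BC21/H2AC20: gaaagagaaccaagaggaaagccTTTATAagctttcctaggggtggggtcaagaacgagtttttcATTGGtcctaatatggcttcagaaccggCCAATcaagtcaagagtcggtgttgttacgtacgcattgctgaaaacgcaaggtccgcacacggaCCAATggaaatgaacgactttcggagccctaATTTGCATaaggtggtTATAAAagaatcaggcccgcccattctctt
The octamer and 1 TATAAA lie near the H2BC21 end, and a second TATAAA, on the other strand, lies at the H2AC20 end.

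H2BC21 had 6.76, 6.29 and 5.67 TPM in DMSO, 6.84, 6.63 and 7.18 TPM at 6 h, 1.43, 1.58 and 1.49 TPM at 24 h, 2.82, 2.44 and 2.18 TPM at 48 h and 4.15, 3.94 and 3.49 TPM at 72 h. It was level at 6 h, lowest at 24 h and higher again by 72 h, with no overlap between DMSO and 24, 48 or 72 h. The fall was 2.09 ± 0.11 on the log2 scale at 24 h (adjusted p = 3.6e-11), 1.29 ± 0.11 at 48 h (adjusted p = 6.8e-09) and 0.77 ± 0.10 at 72 h (adjusted p = 2.4e-06). From 24 to 72 h it rose by 1.32 ± 0.12 (adjusted p = 2.1e-08). H2AC20 across the same promoter had 1.8, 4.68 and 1.94 TPM in DMSO and 4.35, 5.42 and 5.66 TPM at 24 h, which overlap, and its log2 change at 24 h was 0.81 ± 0.31 (adjusted p = 0.028). At 72 h that of H2AC20 was 0.34 ± 0.32 (adjusted p = 0.34). Whether the 2 genes differ from each other was not tested.

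H2BC4 and H2AC6 are the like pair at 6p22, an H2B gene (chr6:26086317-26123926, minus strand) and an H2A gene (chr6:26124145-26139116, plus strand). Their starts in RefSeq lie 245 bases apart (GRCh38.p14, chr6:26123927-26124171, printed along the minus strand of H2BC4). The sequence is shown, with capitals as above, because both genes were lower at 24 h and only H2BC4 was at 72 h, at an adjusted p under 0.05. Whether the changes of these 2 genes differ was not tested.
H2BC4/H2AC6: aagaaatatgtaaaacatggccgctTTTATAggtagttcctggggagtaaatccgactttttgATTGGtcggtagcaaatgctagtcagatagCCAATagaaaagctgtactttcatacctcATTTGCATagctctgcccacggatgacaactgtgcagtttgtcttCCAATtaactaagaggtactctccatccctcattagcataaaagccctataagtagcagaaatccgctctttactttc
A single octamer lies near the middle and the only TATAAA, on the other strand, lies at the H2AC6 end.

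H2BC4 had 4.76, 5.35 and 4.93 TPM in DMSO, 5.64, 5.23 and 5.76 TPM at 6 h, 2.55, 2.79 and 3.42 TPM at 24 h, 2.65, 2.48 and 2.57 TPM at 48 h and 2.34, 3.28 and 2.16 TPM at 72 h. All libraries from 24 h on lay below all DMSO libraries. Its log2 change was -0.89 ± 0.17 at 24 h (adjusted p = 1.5e-04), -1.01 ± 0.17 at 48 h (adjusted p = 5.3e-05) and -1.06 ± 0.17 at 72 h (adjusted p = 2.8e-05), so the calls at 48 and 72 h sat at the 2-fold limit and were kept in 10 and 11 of 15 fits without 1 library. H2AC6 had 6.01, 6.56 and 5.73 TPM in DMSO, 4.06, 3.84 and 3.65 TPM at 24 h, 3.78, 3.62 and 3.49 TPM at 48 h and 7.49, 7.18 and 6.51 TPM at 72 h. It fell by 0.70 ± 0.11 at 24 h (adjusted p = 1.9e-05) and by 0.72 ± 0.11 at 48 h (adjusted p = 1.6e-05), while at 72 h its change was 0.12 ± 0.10 (adjusted p = 0.29). From 24 to 72 h H2AC6 rose by 0.82 ± 0.11 (adjusted p = 2.7e-06), whereas H2BC4 changed by -0.16 ± 0.18 (adjusted p = 0.49).

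H2BC12, an H2B gene at 6p22 (chr6:27146361-27146855, minus strand), was already lower at 6 h. Its upstream 150 bases are printed for comparison with those of H2AC18 (RefSeq, GRCh38.p14, chr6:27146859-27147008, minus strand, capitals as above).
H2BC12: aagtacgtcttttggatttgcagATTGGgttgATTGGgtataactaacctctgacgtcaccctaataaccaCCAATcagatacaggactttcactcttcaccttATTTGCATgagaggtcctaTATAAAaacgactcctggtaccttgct
Unlike H2AC18 it holds an octamer, and CCAAT occurs 3 times over both strands.
H2BC12 had 54.5, 56.3 and 62.2 TPM in DMSO, 36.4, 40.5 and 37.5 TPM at 6 h, 29.1, 32.5 and 35.0 TPM at 24 h, 34.6, 35.6 and 22.8 TPM at 48 h and 30.8, 32.4 and 29.9 TPM at 72 h. Each UM171 library was below each DMSO library. The gene fell by 0.77 ± 0.09 at 6 h (adjusted p = 2.2e-06), 0.89 ± 0.09 at 24 h, 0.87 ± 0.09 at 48 h and 0.97 ± 0.09 at 72 h (adjusted p = 5.5e-08), always under 2-fold. H2BC12L on chromosome 21, a near copy that counts as replacement only for want of a HIST name, shares 51.0% of its words with H2BC12. Its counts had a median RSEM SD of 63.8%, against 1.19% for H2BC12, and its mean level was 1.52 TPM.

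**Figure D2:**
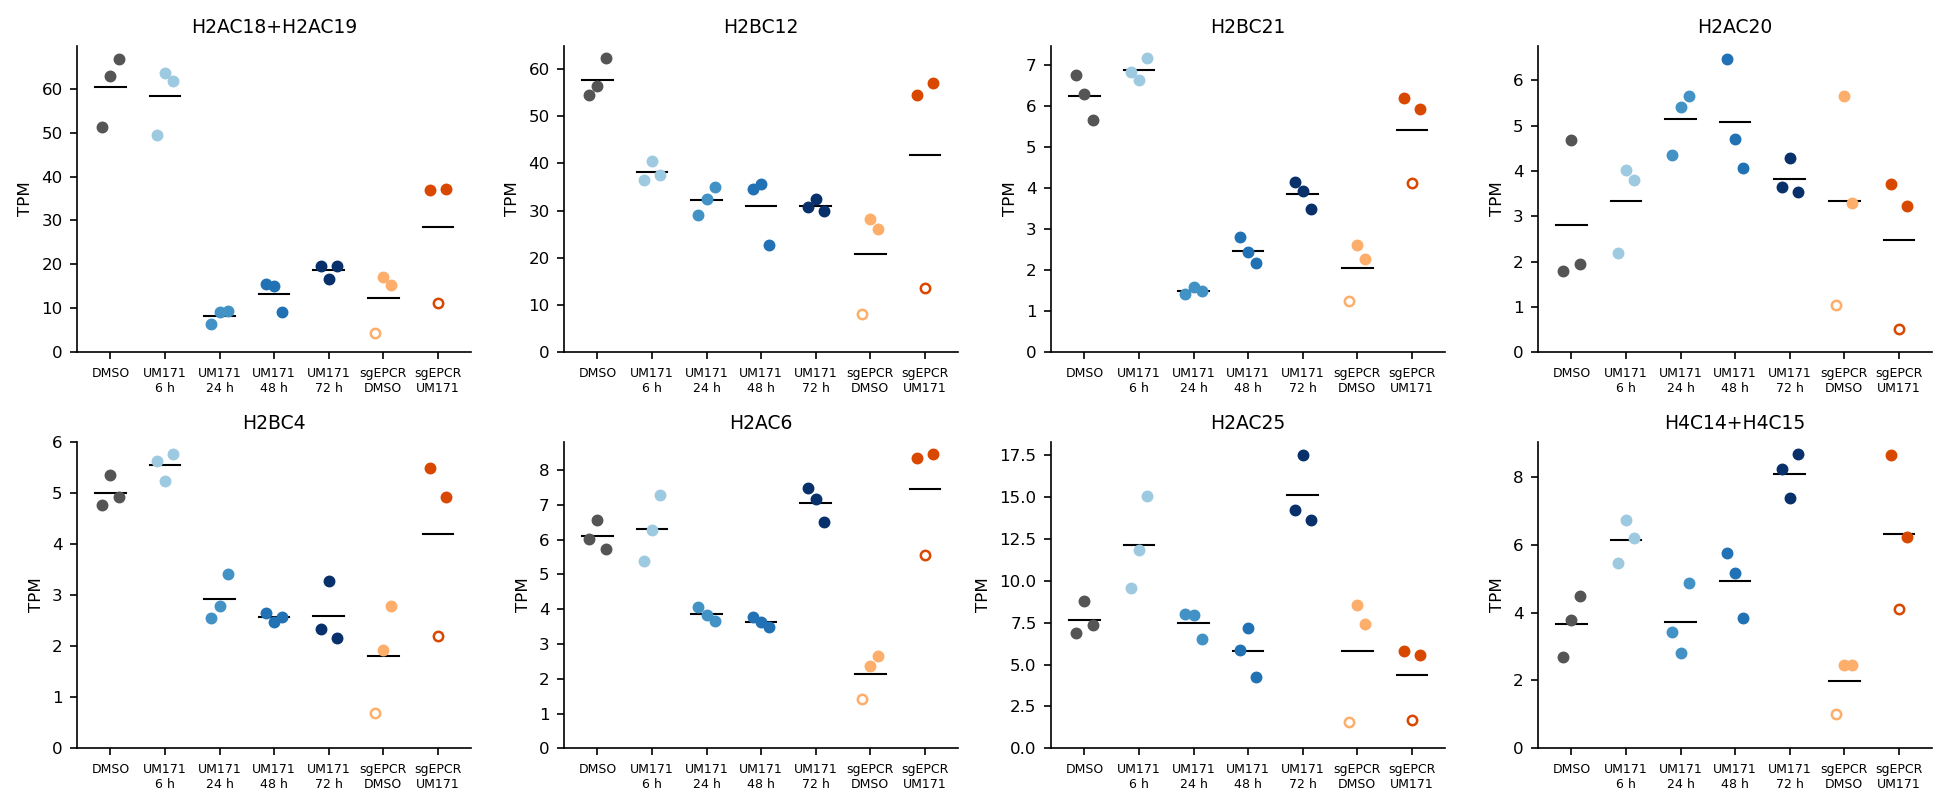
TPM (vertical axes, from 0) of 8 clustered genes or near-identical pairs by group; each point is a library, open points are the 2 libraries with over 20% mitochondrial counts and black bars are group means. H2AC18+H2AC19 and H2BC21 have their lowest time course means at 24 h (6.54 to 9.42 and 1.43 to 1.58 TPM by library), H2BC12 is already lower at 6 h (36.4 to 40.5 TPM), and H2AC25 and H4C14+H4C15 are highest at 72 h.

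Other clustered genes were higher than in DMSO at some times. H2AC25, an H2A gene at 1q42 (chr1:228434777-228457873, minus strand), had 6.86, 8.78 and 7.39 TPM in DMSO, 9.60, 11.9 and 15.1 TPM at 6 h, 8.01, 7.95 and 6.51 TPM at 24 h, and 14.2, 17.5 and 13.7 TPM at 72 h. It was above DMSO at 6 and 72 h without overlap and level with it at 24 h, with log2 changes of 0.49 ± 0.16 (adjusted p = 0.012), -0.05 ± 0.16 (adjusted p = 0.78) and 0.91 ± 0.15 (adjusted p = 3.5e-05) at 6, 24 and 72 h. At 48 h H2AC25 was lower than in DMSO, with a log2 change of -0.39 (adjusted p under 0.05). H2BC26, the H2B gene across its promoter, rose by 1.87 on the log2 scale at 72 h (adjusted p = 9.9e-04) from a mean level of 0.237 TPM over all libraries. The H4 genes H4C14 and H4C15, which share 97.5 to 100% of their words, summed to 2.69, 3.77 and 4.49 TPM in DMSO, 5.47, 6.74 and 6.21 TPM at 6 h, 3.44, 2.82 and 4.87 TPM at 24 h and 8.23, 7.38 and 8.66 TPM at 72 h. As a sum H4C14+H4C15 rose by 0.60 ± 0.13 at 6 h, fell by 0.38 ± 0.14 at 24 h and rose by 1.19 ± 0.12 at 72 h (adjusted p = 6.6e-04, 0.022 and 1.4e-07). In TPM the DMSO and 24 h libraries overlapped, so the fall at 24 h held on the TMM scale only. H4C11, another H4 gene with a near copy, rose by 0.90 ± 0.35 at 24 h (adjusted p = 0.028), 1.53 ± 0.33 at 48 h (adjusted p = 5.8e-04) and 1.26 ± 0.34 at 72 h (adjusted p = 2.8e-03).

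Among the remaining clustered genes named by level, H1-2, a linker histone gene at 6p22 (chr6:26055740-26056470), had 11.7, 11.8 and 14.1 TPM in DMSO, 16.7, 16.6 and 16.6 TPM at 6 h, 9.29, 11.2 and 10.9 TPM at 24 h and 12.5, 10.1 and 12.4 TPM at 72 h. It fell by 0.31 ± 0.12 at 24 h (adjusted p = 0.034) and 0.53 ± 0.13 at 48 h (adjusted p = 1.1e-03). In TPM the 6 h libraries were above DMSO, but the log2 change on the TMM scale was 0.24 ± 0.12 (adjusted p = 0.089). H2BC5, an H2B gene with 3.95 to 4.14 TPM in DMSO and 3.70 to 5.71 TPM at 24 h, changed by 0.05 ± 0.16 (adjusted p = 0.91). Of 8 tested clustered H4 genes, 2 were higher and 2 lower at 24 h at an adjusted p under 0.05, against 1 higher and 4 lower of 9 H2A genes and 1 higher and 4 lower of 12 H2B genes. Of all genes, 34.9% were higher and 34.8% lower. No clustered H3 gene exceeded 1.31 TPM on average. With the near-identical genes summed, counts past the limits at 6, 24, 48 and 72 h were 0, 2, 3 and 5.

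The replacement genes peaked at 24 h in several families. H2AZ1 (chr4:99948086-99950355, minus strand) encodes H2A.Z, the H2A variant found at promoters. It had 384, 402 and 413 TPM in DMSO, 306, 413 and 393 TPM at 6 h, 741, 747 and 724 TPM at 24 h, 563, 637 and 329 TPM at 48 h and 350, 424 and 445 TPM at 72 h. All 24 h libraries exceeded all others of the time course. The log2 change of H2AZ1 was 0.81 ± 0.11 at 24 h (adjusted p = 5.8e-06), 0.37 ± 0.11 at 48 h (adjusted p = 7.5e-03) and -0.07 ± 0.11 at 72 h (adjusted p = 0.58), and from 24 to 72 h it fell by 0.88 ± 0.11 (adjusted p = 2.2e-06). H2AZ2, the other H2A.Z gene, had 189, 198 and 200 TPM in DMSO and 237, 238 and 226 TPM at 24 h, a rise of 0.29 ± 0.06 (adjusted p = 3.0e-04).

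H3-3A and H3-3B, on chromosomes 1 and 17, encode the same H3.3 protein, the H3 variant deposited outside replication. H3-3A had 415, 434 and 438 TPM in DMSO, 391, 419 and 418 TPM at 6 h and 602, 622 and 602 TPM at 24 h, while H3-3B had 498, 493 and 493 TPM, 380, 422 and 428 TPM, and 566, 614 and 600 TPM. Both were lower at 6 h and higher at 24 h. H3-3A changed by -0.24 ± 0.03 at 6 h (adjusted p = 1.7e-05) and 0.46 ± 0.03 at 24 h (adjusted p = 2.7e-09). H3-3B changed by -0.37 ± 0.05 (adjusted p = 1.6e-05) and 0.36 ± 0.05 (adjusted p = 1.2e-05). At 72 h H3-3A stayed 0.15 ± 0.03 above DMSO (adjusted p = 8.7e-04), and the change of H3-3B was -0.07 ± 0.05 (adjusted p = 0.27). None of these changes reached 2-fold.

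H2AX, whose product is phosphorylated at DNA breaks, had 114, 130 and 126 TPM in DMSO, 103, 108 and 109 TPM at 6 h, 105, 113 and 119 TPM at 24 h, 95.8, 85.9 and 72.0 TPM at 48 h and 87.4, 100 and 80.3 TPM at 72 h. It fell by 0.38 ± 0.07, 0.18 ± 0.07, 0.53 ± 0.07 and 0.55 ± 0.07 on the log2 scale in that order, with the 24 h libraries alone overlapping DMSO. H2AJ, an H2A gene on chromosome 12 outside the clusters, had 61.6, 71.3 and 65.5 TPM in DMSO, 87.5, 90.9 and 86.3 TPM at 6 h, 54.5, 53.9 and 59.5 TPM at 24 h, and 90.9, 96.1 and 85.1 TPM at 72 h. Its changes of 0.29 ± 0.06, -0.23 ± 0.06 and 0.65 ± 0.06 at 6, 24 and 72 h (adjusted p from 9.8e-09 to 1.8e-03) put it higher at 6 and 72 h and lower at 24 h.

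H1-10, a replacement gene of the linker histone family, passed the limits at 72 h. H1-10 (chr3:129314771-129316286, minus strand) had 78.2, 71.3 and 77.4 TPM in DMSO, 89.3, 102 and 99.8 TPM at 6 h, 89.3, 97.1 and 105 TPM at 24 h, 106, 95.8 and 73.6 TPM at 48 h and 190, 220 and 195 TPM at 72 h. The 72 h libraries stood clear of every other library of the series. H1-10 rose by 1.34 ± 0.07 at 72 h (adjusted p = 2.2e-11), after 0.32 ± 0.07 at 24 h (adjusted p = 9.5e-04) and 0.30 ± 0.07 at 48 h (adjusted p = 1.4e-03).

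The 150 bases upstream of H1-10 are printed as well (RefSeq, GRCh38.p14, chr3:129316287-129316436, minus strand, capitals for TATAAA).
H1-10: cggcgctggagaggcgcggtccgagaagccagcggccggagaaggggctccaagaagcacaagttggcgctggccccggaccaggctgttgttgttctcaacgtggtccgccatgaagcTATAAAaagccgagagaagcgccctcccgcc
It holds neither CCAAT nor the octamer.

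**Figure D3:**
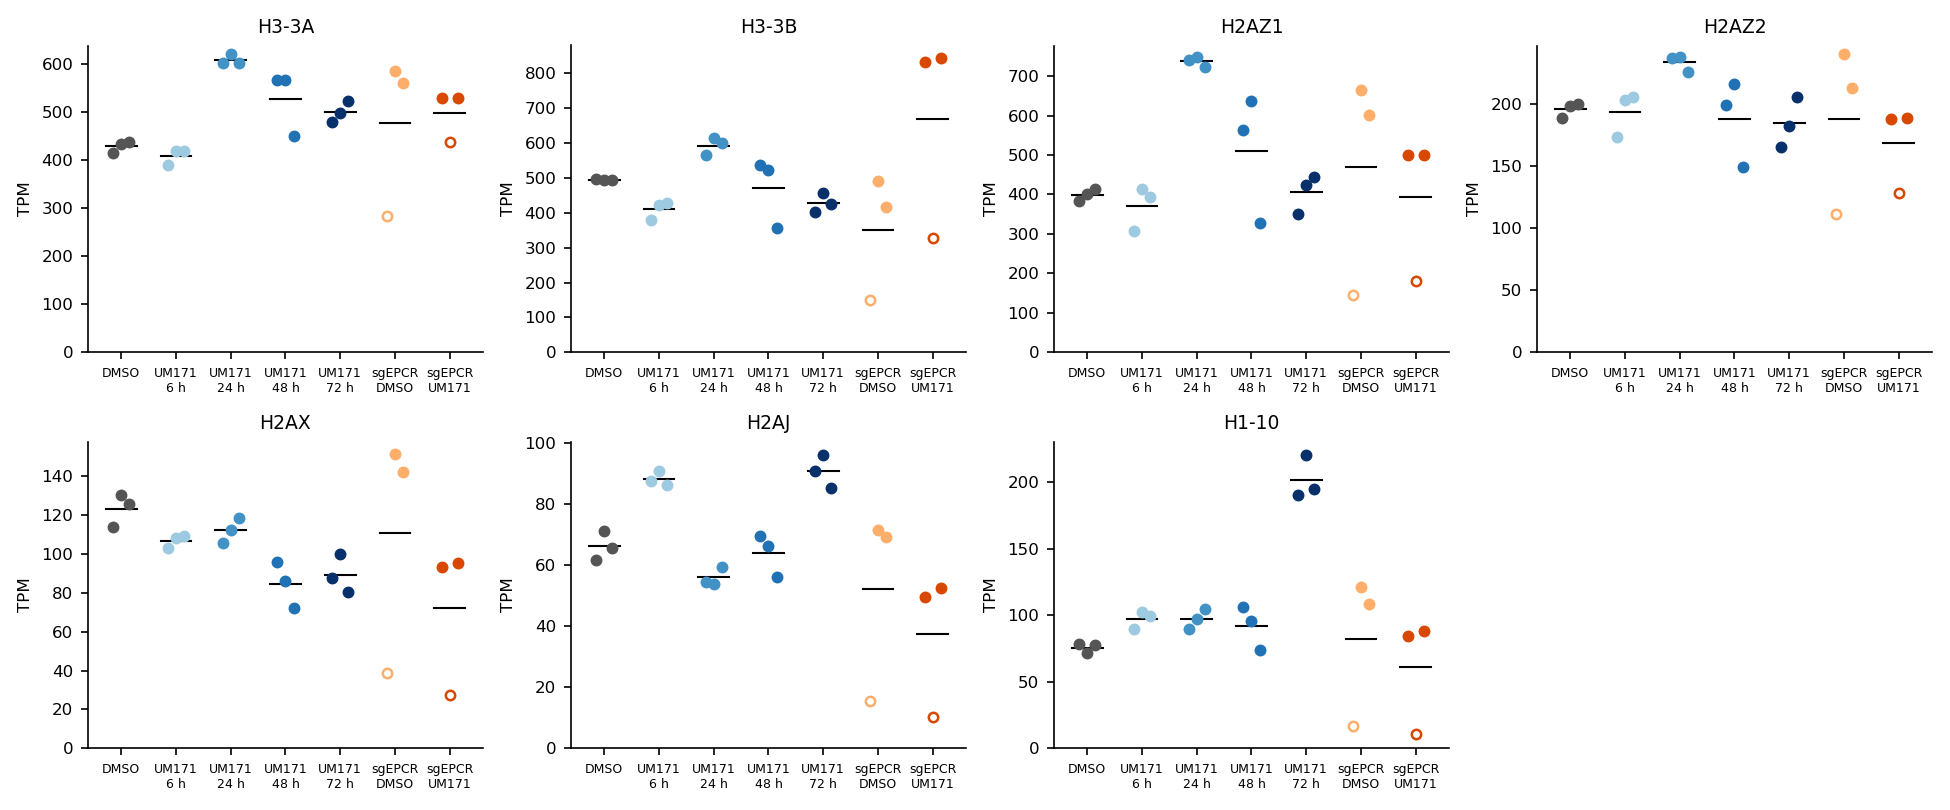
TPM (vertical axes, from 0) of 7 replacement genes with a mean level of at least 10 TPM, by group; each point is a library, open points are the 2 libraries with over 20% mitochondrial counts and black bars are group means. H2AZ1, H2AZ2, H3-3A and H3-3B are highest of the time course at 24 h, whereas H1-10 (190 to 220 TPM) is highest at 72 h.

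Between 24 and 72 h of UM171, 2 of 44 members passed the limits, H2BC21 and H1-10, both higher at 72 h, against 11.9% of all genes. The H1-10 rise of 1.02 ± 0.07 (adjusted p = 1.2e-09) was at the 2-fold limit and kept its call in 9 of 15 fits without 1 library. By the second limit, an adjusted p under 0.05, 9 clustered members were higher and 2 lower (H3C8 and H4C3), and 3 replacement members were higher (among them H1-10 and H2AJ) and 5 lower (H2AZ1, H2AZ2, H2AX, H3-3A and H3-3B), against 36.4% higher and 33.4% lower of all genes. H3C8, an H3 gene, ran against the larger group, rising by 1.65 at 24 h (adjusted p = 4.6e-04) and falling by 1.32 from 24 to 72 h (adjusted p = 2.0e-03). H3C8 and H4C3 fall outside the rule for naming and were chosen after their values were seen.

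In sgEPCR cells more clustered genes were higher than lower with UM171. At 24 h, 2 of 43 tested members passed the limits against sgEPCR DMSO, H2AC6 and H2BC21, both higher, with 10.3% of all 15901 tested genes past them. With an adjusted p under 0.05, 12 clustered members were higher and 0 lower (27.0% and 25.1% of all genes), while 1 replacement member was higher and 3 were lower. At an unadjusted p under 0.05 it was 15 of the 34 clustered members, and DESeq2 and limma placed 3 and 0 members past the limits. Without both libraries of high mitochondrial share the clustered counts were 15 higher and 3 lower of 40 (34.5% and 36.4% of all genes), and the replacement counts 2 and 6. Clustered TPM summed to 33.8, 124 and 120 in sgEPCR DMSO and to 201, 63.4 and 188 in sgEPCR UM171, the low value in each group being the library of high mitochondrial share. As a share of both classes the clustered genes made up 4.23 to 5.34% and 5.32 to 8.08%.

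H2BC21 had 1.24, 2.61 and 2.28 TPM in sgEPCR DMSO and 6.20, 4.12 and 5.92 TPM in sgEPCR UM171, with no overlap and the first and second of these values respectively from the libraries of high mitochondrial share. H2BC21 rose by 1.19 ± 0.14 (adjusted p = 4.5e-05), and by 1.11 ± 0.12 without both libraries (adjusted p = 1.5e-06). H2AC6 had 1.41, 2.36 and 2.65 TPM in sgEPCR DMSO and 8.35, 5.57 and 8.47 TPM in sgEPCR UM171, a rise of 1.53 ± 0.15 (adjusted p = 9.9e-06), or 1.52 ± 0.12 without both (adjusted p = 5.3e-08). The call of H2BC21 was kept in 3 of 12 fits without 1 library (adjusted p from 4.4e-05 to 4.3e-04) and that of H2AC6 in 11 of 12, and neither was kept by limma or with the replicate number as a block. In both genes the sgEPCR UM171 values overlapped those of control DMSO. H2AC18+H2AC19 had 4.5, 17.1 and 15.4 TPM and then 36.9, 11.3 and 37.1 TPM, which overlap, with a log2 change of 0.97 ± 0.24 (adjusted p = 6.2e-03), or 0.99 ± 0.13 without both libraries (adjusted p = 7.0e-06). H2BC12 had 8.18, 28.3 and 26.1 TPM and then 54.5, 13.6 and 57.0 TPM, a change of 0.72 ± 0.26 (adjusted p = 0.037), or 0.83 ± 0.10 without both libraries (adjusted p = 2.3e-06). H4C14+H4C15 as a sum rose by 1.68 ± 0.16 (adjusted p = 7.3e-06), or 1.59 ± 0.17 without both (adjusted p = 1.0e-06).

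Among replacement genes H3-3B had 151, 490 and 416 TPM in sgEPCR DMSO and 832, 329 and 845 TPM in sgEPCR UM171, a rise of 0.75 ± 0.09 (adjusted p = 3.5e-05), or 0.65 ± 0.04 without both libraries (adjusted p = 2.7e-09). H3-3A, which encodes the same protein, had 283, 586 and 562 TPM and then 529, 437 and 530 TPM, with a change of -0.10 ± 0.15 (adjusted p = 0.61) that became -0.32 ± 0.03 without both libraries (adjusted p = 1.4e-06). H2AX had 38.9, 152 and 142 TPM and then 93.5, 27.4 and 95.6 TPM, a change of -0.87 ± 0.22 (adjusted p = 6.8e-03), or -0.86 ± 0.06 without both (adjusted p = 4.4e-09). H1-10 had 17.1, 121 and 108 TPM and then 84.6, 11.1 and 88.0 TPM, and its log2 change of -0.66 ± 0.48 (adjusted p = 0.28) was -0.61 ± 0.07 without both libraries (adjusted p = 2.3e-06). For H1-10 the libraries of high mitochondrial share lay far below the others of their group.

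Some clustered genes were lower in sgEPCR than in control cells in DMSO, a count that depended on both libraries of high mitochondrial share. No member passed the limits (2.84% of all genes did), with 19 at an unadjusted p under 0.05, 5 past the limits in DESeq2 and 0 in limma. Taken at an adjusted p under 0.05, 9 clustered members were lower and 0 higher (16.3% and 17.4% of all genes). Without both libraries 12 were lower and 5 higher of 40, where 30.0% and 30.3% of all genes were, and the median log2 change of the clustered members went from -0.04 to 0.22. H2BC21 was lower by 1.19 ± 0.14 (log2 change -1.19, adjusted p = 1.2e-04), H2AC6 changed by -1.07 ± 0.15 (adjusted p = 3.1e-04), H2BC4 by -1.19 ± 0.21 (adjusted p = 1.4e-03) and H2AC18+H2AC19 by -1.97 ± 0.25 (adjusted p = 1.5e-04). Without both libraries, H2BC21 (-1.25 ± 0.11) and H2AC6 (-1.18 ± 0.12) were among the 3 of 49 members past the limits (adjusted p = 3.8e-07 and 9.3e-07). Of all genes 6.504% passed them there. In that fit H2BC4 changed by -1.04 ± 0.20 (adjusted p = 4.1e-04) and H2AC18+H2AC19 by -1.80 ± 0.12 (adjusted p = 9.3e-09). Labelled time differed between these groups, so guide and time cannot be told apart here.

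With UM171 for 24 h in both, 1 of 43 members passed the limits between sgEPCR and control cells, against 4.46% of all genes. It was H2BC21, higher by 2.08 ± 0.15 (adjusted p = 2.5e-06), from 1.43 to 1.58 TPM in control cells to 4.12 to 6.20 TPM in sgEPCR cells. The call was lost in limma (1.34, adjusted p = 2.5e-03) and with the replicate number as a block (adjusted p = 8.4e-03). At an adjusted p under 0.05, 11 clustered members were higher and 0 lower (20.8% and 22.2% of all genes), and without both libraries of high mitochondrial share 16 were higher and 1 lower (32.4% and 35.9%). H2AC6 was at 1.17 ± 0.14 (adjusted p = 1.0e-04) and H2AC18+H2AC19 at 1.90 ± 0.25 (adjusted p = 1.6e-04). Without both libraries H2BC21 was at 1.94 ± 0.12, H2AC6 at 1.05 ± 0.10 and H2AC18+H2AC19 at 2.11 ± 0.13 (adjusted p = 3.0e-09, 6.1e-07 and 2.8e-09). Both groups carry the label 24 h.

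For some members the change from DMSO to 24 h of UM171 differed between both kinds of cell. In the test of the difference of responses, sgEPCR minus control, 2 of 43 members passed the limits, H2BC21 at 3.27 ± 0.20 (adjusted p = 9.5e-07) and H2AC6 at 2.23 ± 0.21 (adjusted p = 1.3e-05), against 7.77% of all genes. At an adjusted p under 0.05, 12 clustered members had a positive difference and 0 a negative one (21.9% and 23.1% of all genes). Without both libraries of high mitochondrial share it was 15 and 6 (33.6% and 35.6%). Of the replacement members H3-3B had a positive one (0.39 ± 0.12, adjusted p = 0.024) and H2AZ1 (-1.25 ± 0.25, adjusted p = 2.3e-03) and H2AZ2 (-0.52 ± 0.09, adjusted p = 7.0e-04) negative ones. H2BC4 had 1.94 ± 0.29 (adjusted p = 3.5e-04), H2BC12 1.59 ± 0.36 (adjusted p = 4.5e-03) and H2AC18+H2AC19 3.87 ± 0.35 (adjusted p = 1.1e-05). In the fit without both libraries, 6 clustered members passed the limits with a positive difference (19.1% of all genes passed them in either direction), among them H2BC12 (1.73 ± 0.12, adjusted p = 1.6e-08), H2BC4 (1.88 ± 0.27, adjusted p = 2.5e-05) and H2AC18 (3.33 ± 0.44, adjusted p = 1.1e-05), and H2AZ1 passed with a negative one (-1.35 ± 0.05, adjusted p = 5.1e-11). H2BC21, H2AC6 and H2AC18+H2AC19 had 3.19, 2.22 and 3.92 in that fit, H3-3B had 0.29 and H2AZ2 -0.54. Both calls were lost in limma and under the block of replicate numbers, with an adjusted p of at most 6.6e-04 for H2BC21 and 2.4e-03 for H2AC6 over all 23 alternatives. The difference contains the lower DMSO level of sgEPCR cells as well as their level with UM171. The DMSO libraries are labelled 72 h in control and 24 h in sgEPCR cells. Guide and labelled time therefore cannot be told apart in this difference.

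**Figure D4:**
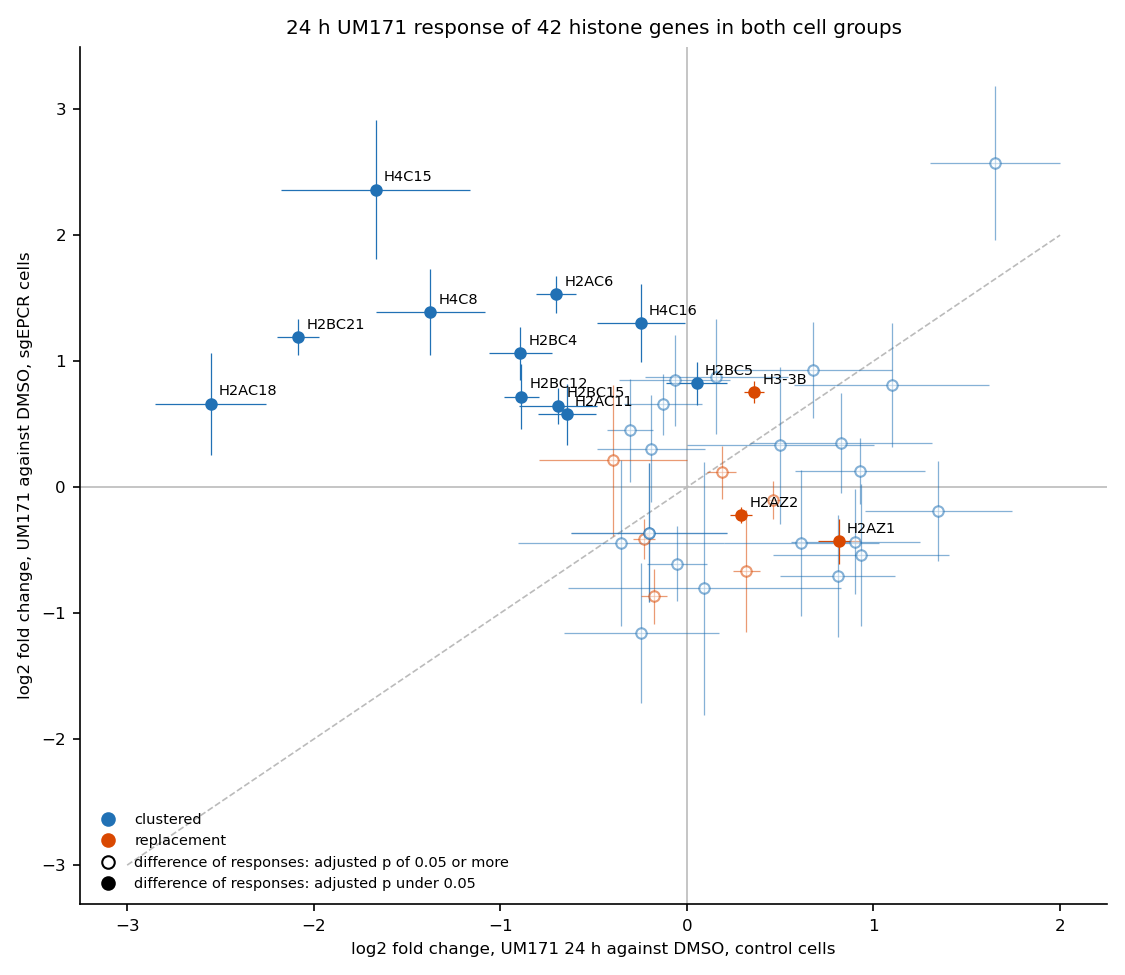
Log2 fold change after 24 h of UM171 in control cells (horizontal axis) and in sgEPCR cells (vertical axis) for the 42 members with a value in both fits other than H2AC19, whose zeros give no usable fold; points are edgeR estimates, lines are 1 SE each way, the dashed line marks equal responses and filled points have an adjusted p under 0.05 for the difference. H2AC18, H2BC21, H4C8 and H2AC6 lie at the upper left, lower in control and higher in sgEPCR cells, while H2AZ1 and H2AZ2 lie at the lower right.

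Upstream sequence of the members was read from a RefSeq table (250 bases before each start, GRCh38.p14), which held 84 of the 93. The octamer ATTTGCAT, on either strand, was present in 1.66% of all 27305 promoters, in 11 of 16 clustered H2A promoters and in 14 of 18 clustered H2B promoters. It was present in 1 of 13 clustered H3, 0 of 13 clustered H4 and 0 of 6 clustered H1 promoters. CCAAT occurred in 33.0% of all promoters, in all those of clustered H1, H2A, H2B and H3 that were matched and in 3 of 13 of H4. It did not set the clustered genes apart. Of the replacement promoters, 9 of 9 of H2A, 2 of 2 of H2B, 4 of 4 of H3 and 2 of 3 of H1 held it. TATAAA occurred in 11.1% of all and in 12 of 16 clustered H2A and 12 of 18 clustered H2B promoters. GGTCCG, the core of the site bound by the H4 factor HINFP, occurred in 9.33% of all and in 12 of 13 clustered H4 promoters. Of 11 pairs of H2A and H2B genes that face apart, with 193 to 247 bases between starts, 5 had both genes tested, and the bases they share appear once for each gene in these counts. The other 2 such pairs with both genes tested, H2BC8 with H2AC8 and H2BC11 with H2AC11, had log2 changes at 24 h of 0.67 and 0.61, and of -0.06 and -0.64.

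Other genes of histone supply were read from fixed lists. Of 23 S phase genes, 21 were higher and 0 lower at 24 h at an adjusted p under 0.05 (34.9% and 34.8% of all genes). They were led by POLA1, a DNA polymerase subunit (1.30), RRM2, a ribonucleotide reductase subunit (1.30), and TK1, thymidine kinase (1.04). Over the same libraries the clustered histone sum had its lowest group mean of the time course, and 5 clustered members were higher and 11 lower. At 72 h 5 S phase genes were higher and 15 lower (38.8% and 36.8% of all genes). From 24 to 72 h 1 was higher and 22 lower (36.4% and 33.4% of all genes). In sgEPCR cells 0 were higher and 20 lower with UM171 (27.0% and 25.1% of all genes). In DMSO 19 were higher and 0 lower than in control cells (17.4% and 16.3% of all genes). The difference of responses was positive for 0 and negative for 20 (21.9% and 23.1% of all genes). The clustered members counted 12 higher and 0 lower, 0 higher and 9 lower, and 12 positive and 0 negative in the same 3 comparisons. Without both libraries of high mitochondrial share the clustered zeros were lost, with 15 higher and 3 lower, 5 higher and 12 lower, and 15 positive and 6 negative, while the S phase counts were 0 and 23, 23 and 0, and 0 and 23. Summed TPM of this list was 2064 to 2160 in DMSO, 2914 to 3028 at 24 h and 1486 to 1564 at 72 h, against 1512, 3508 and 3506 in sgEPCR DMSO and 2102, 1317 and 2101 in sgEPCR UM171. These counts are set side by side as a description, since the comparisons share their control libraries.

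Of 28 tested genes of histone mRNA transcription and 3′ end processing, 10 were higher and 10 lower at 24 h, near the 34.9% and 34.8% of all genes, and 4 higher and 21 lower at 72 h, where 38.8% and 36.8% of all genes were. SLBP, which binds the stem-loop of histone mRNA, fell by 0.23 at 24 h, by 1.09 at 72 h and by 0.92 with UM171 in sgEPCR cells (a log2 change of -0.81 without both libraries of high mitochondrial share). NPAT, the coactivator of clustered histone genes, rose by 0.41 at 24 h. The largest changes of the list at 24 h were in cyclin E2 (CCNE2, 0.86), CDK2 (0.83), its partner kinase, and cyclin E1 (CCNE1, 0.73). Of 30 tested histone chaperones and deposition factors, 15 were higher and 12 lower at 24 h (34.9% and 34.8% of all genes). At 72 h 4 were higher and 22 lower (38.8% and 36.8% of all genes). ANP32E, which removes H2A.Z (1.68), ASF1A, an H3-H4 chaperone (1.49), and UBN2, of the H3.3 deposition complex (-1.28), changed most at 24 h. In sgEPCR cells 0 of the chaperones were higher and 21 lower with UM171 (27.0% and 25.1% of all genes), or 2 and 25 without both libraries (34.5% and 36.4%). Among RNAs that lack a poly(A) tail, 10 of 20 were tested and 1 was higher and 0 lower at 24 h (34.9% and 34.8% of all genes). Their sum ran from 199 to 1089 TPM within the 24 h group and from 610 to 1984 TPM within the 72 h group, wider than any clustered sum, and its part in the clustered results was not tested.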

How the data were processed

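RNA was measured in 21 libraries of OCI-AML5 cells (7 groups of 3, 24.3 to 51.5 M expected counts each, assigned to groups by the sample titles). The authors made stranded poly(A) libraries, and the submitters' processing notes name CASAVA 1.8.2, Trimmomatic 0.35, STAR 2.5.1b, RSEM 1.2.28 and GRCh38. The deposited gene tables hold RSEM expected counts, estimated counts that need not be whole, and TPM, per the file headers. Each of the 58219 rows per file was read without its version, and 45 Y pseudoautosomal rows were summed with their X copies. Symbols came from GENCODE v44 by gene ID (57392 identifiers) or transcript ID (59, among them 4 members), and 2 histone symbols were not analysed here.

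Expected counts were rounded and tested in edgeR 4.0.16 (R 4.3.3; TMM, filterByExpr, quasi-likelihood), with 15 time course libraries in 1 fit and 12 in the sgEPCR fit (16575 and 15901 genes) and Benjamini-Hochberg adjustment over all of them. The limits were an adjusted p under 0.0001 and over 2-fold, with an adjusted p under 0.05 as a second limit. The study's own test on another quantification was not run. Of 200 genes changed in simulated counts, 200 were recovered for 24 h (16091 genes) and 175 for the difference of responses (15502 genes), with 0 false calls in each. Recovery was not tested for the histone members on their own. Some of these had low mean counts, such as 46.5 for H2BC4 and 27.2 for H2AC20. The alternatives tried included limma 3.58.1 on log2(TPM + 1), DESeq2 1.42.0, other scalings, filters, all 21 libraries, a replicate block, each library left out, both libraries over 20% mitochondrial left out and, added after the data were seen, near-identical members summed (90% or more of 50-base words shared), with all libraries and without those 2. Sums and shares are given as library values, ranges or group means, some with an SD over libraries, and no other error was computed for them. A count of 0 allows up to 3.

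Named members were the 12 clustered genes of highest mean TPM, replacement genes of at least 1 TPM, and up to 2 largest rises and falls past the limits per comparison; 1 of them is not reported here. In each other list they were the 3 genes changed most at 24 h, with SLBP and NPAT. Members and lists were chosen with earlier results of these data known. Promoters came from RefSeq (GRCh38.p14, 250 bases, both strands, Python 3.11.15), and figures from matplotlib 3.10.9.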

Additional observations from a re-analysis of the deposited data

Results flagged for a closer look

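For 2 members the response to 24 h of UM171 differed between sgEPCR and control cells by the interaction term of the edgeR fit, at an adjusted p under 0.0001 and over 2-fold. H2BC21 had a difference of 3.27 on the log2 scale, falling by 2.09 in control cells and rising by 1.19 in sgEPCR cells. H2AC6 had a difference of 2.23, falling by 0.70 in control cells and rising by 1.53 in sgEPCR cells. All 3 sgEPCR UM171 libraries were above all 3 sgEPCR DMSO libraries in both genes, and all 3 control libraries at 24 h were below all 3 in DMSO. The labelled time of the control DMSO libraries (72 h) differs from that of the other 3 groups (24 h), and its part in the difference was not tested.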

How the results depend on the processing

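Counts are of members past both limits, with 0 at 6 h, 2 at 24 h, 3 at 48 h, 3 at 72 h and 2 from 24 to 72 h, then 2 for UM171 in sgEPCR cells, 0 and 1 for sgEPCR against control cells in DMSO and in UM171, and 2 for the difference of responses. At an adjusted p under 0.05 with no limit on fold they were 12, 24, 20, 19 and 19, then 16, 13, 14 and 15. DESeq2 gave 5 at 72 h and, in the last 3, 5, 6 and 8. Limma on log2(TPM + 1) gave 1 from 24 to 72 h, then 0 in all 4 sgEPCR comparisons. Without a filter 24, 48 and 72 h had 6, 7 and 9. Upper quartile scaling gave 4 from 24 to 72 h, then 1 and 2 against control cells, at least 10 counts in every library also gave 1 and 2 there, and leaving mitochondrial genes out gave 2 in UM171. All 21 libraries in 1 fit gave 1 from 24 to 72 h, then 4, 3 and 4 in the last 3; H1-10 at 72 h had 1.33 there with an adjusted p of 6.2e-03 (1.29 to 1.42 over its alternatives, lowest adjusted p 3.0e-127 without a filter). Near-identical members summed gave 5 at 72 h, 4 from 24 to 72 h, 2 in UM171 and 4 for the difference. Without both libraries of high mitochondrial share the last 3 were 3, 4 and 7 of 49, where 6.504%, 9.872% and 19.1% of all genes passed.

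Leaving out 1 library gave 0 to 0 at 6 h, 2 to 3 at 24 h, 2 to 3 at 48 h, 2 to 4 at 72 h and 1 to 4 from 24 to 72 h, then 0 to 2, 0 to 2, 1 to 3 and 1 to 3. H1-10 from 24 to 72 h lost its call, at 0.97 to 1.00, without UM171 6 h replicate 1, 2 or 3, 24 h replicate 1, 48 h replicate 1 or 72 h replicate 2, and 4 members passed without 24 h replicate 3. For UM171 in sgEPCR cells 1 member was left without DMSO replicate 2, UM171 24 h replicate 1 or 3, sgEPCR DMSO replicate 1 or 2 or sgEPCR UM171 replicate 1 or 3, and 0 without sgEPCR DMSO replicate 3. Against control cells in DMSO, 1 passed without sgEPCR DMSO replicate 1 and 2 without sgEPCR UM171 replicate 2, and in UM171 3 passed without sgEPCR DMSO replicate 1. The difference of responses kept 1 without UM171 24 h replicate 2.

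Whether replicate numbers pair the sgEPCR libraries is not known. Deviations of same-numbered libraries correlated at -0.61 to 0.45 in sgEPCR cells. The libraries of high mitochondrial share, sgEPCR DMSO replicate 1 and sgEPCR UM171 replicate 2, correlated at 0.69. With these libraries included, the correlations cannot show whether same-numbered libraries share a clone. With the replicate number as a block 0 members passed in each of the 4 sgEPCR comparisons, where H2BC21 had an adjusted p of 6.6e-04 for the difference of responses, and 2 at 48 h.

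Over 105 pairs of a named member and a comparison past an adjusted p of 0.05, 2300 of 2521 alternative values kept direction and side, 218 lost the threshold and 3 reversed: H2AZ2 at 6 h under total count scaling (0.00995, adjusted p = 0.92), and H2AZ1 and H2AZ2 in sgEPCR against control DMSO under limma (-0.0422 and -0.13). The cause was not tested. Depth limits most the members under the filter on low counts.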

Other observations

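MACROH2A2, a macroH2A gene that the symbol rule leaves out, nearly vanished from sgEPCR cells, with a log2 change of -5.34 in DMSO and -5.00 with UM171 against control cells (-5.08 and -5.46 without both libraries of high mitochondrial share). MACROH2A2 rose by 1.19 at 24 h of UM171 in control cells. In the same comparison MACROH2A1, the other macroH2A gene, fell by 0.32 and CENPA, the centromeric H3 variant, rose by 0.56.

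HINFP, which binds the H4 promoters, fell by 0.58 at 24 h (edgeR, adjusted p = 3.0e-06) and POU2F1, which binds the octamer, rose by 0.42 (adjusted p = 9.3e-07). Both were chosen after their values were seen.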
